A study of Homo sapiens with 9 samples.

Results

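The genes described here are PARP9, DTX3L, PARP14, PARP12, PARP10, SAMD9, SAMD9L, DDX60, DDX60L and MOV10, which code for ADP-ribosylation proteins, antiviral SAM-domain proteins and RNA helicases. They were taken as the rows of the expression table whose platform annotation gives exactly 1 gene symbol, that symbol being one of these names. All 10 were found, in 11 rows (DDX60L had 2), among 33616 genes in 36176 rows with 1 symbol. Each row holds a log2 expression value on each of 9 arrays.

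RNA came from HCN-2 cells, a human cell line derived from cortical tissue and used as a neuronal model. Cells of the control group received a scrambled oligonucleotide, and the other groups a mimic of either miR-126-5p or miR-140-3p, with 3 arrays for each group. All groups received the same HiPerFect transfection reagent, 3 µL of oligonucleotide at 20 µM, and were collected 24 h later. The study set out to learn which transcripts change when each of these miRNAs is raised in such cells. All samples are of 1 cell line, and nothing in the labels says that the 3 samples of a group were separate cultures, so the p-values measure only the spread between these samples, which may be technical.

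ADP-ribosyltransferases of the PARP family attach ADP-ribose units to proteins or nucleic acids, and several of them carry macrodomains that bind or remove this mark. PARP9 and the E3 ubiquitin ligase DTX3L form a complex. Like the helicases of the RIG-I family, which sense viral RNA, these genes are known as interferon-stimulated genes: type I interferon acts through its receptor and the kinases JAK1 and TYK2 to form ISGF3, a complex with the DNA-binding subunit IRF9 that binds interferon-stimulated response elements in promoters.

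The mature miRNAs that the mimics are named for are shown to compare their seeds, the bases 2 to 8 that pair with target transcripts, given in capitals. The sequences are from RefSeq (GRCh38.p14), at chr16:69933142-69933162 and chr9:136670616-136670636, both on the plus strand.
miR-140-3p: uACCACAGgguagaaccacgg
miR-126-5p: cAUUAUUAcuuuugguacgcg
The seeds are ACCACAG and AUUAUUA, so the mimics belong to different seed families.

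Promoter windows of 300 bases, from 250 before to 50 after an annotated start, were available from RefSeq for 9 of the 10 genes, all but PARP10. The core of the interferon-stimulated response element, GAAANNGAA, was searched on both strands. It lay in a window of 8 of these 9 genes, the exception being SAMD9L, while 9.86% of all 27305 genes with a window had it in at least 1. Counted by window, 8 of the 12 windows of these genes held it, against 8.11% of all 35116 windows. PARP9 and MOV10 have several windows, and only 1 window of each held the motif. The STAT site TTCNNNGAA, which reads the same on both strands, was present in 2 of the 12 windows, those of PARP14 and DDX60, against 7.66% of all windows. The stretches below show the motif in capitals with 10 bases on either side, read in the direction that gives GAAANNGAA, to let the sites be compared. Where a gene has 2 sites, the one closer to the start is shown.
PARP9 and DTX3L: ccagggaagcGAAACTGAAactttgcgcc
PARP14: tccaggaaacGAAAGCGAAagagtcaaag
PARP12: ggcgggaaacGAAACCGAAagcggccccg
SAMD9: tctgagaaatGAAACTGAAaccaaaccta
DDX60: gaggagaaagGAAACCGAAactcccgccg
DDX60L: gtggagaaaaGAAACCGAAactaactccc
MOV10: ataggacgaaGAAACCGAAgggaaagctc
PARP9 and DTX3L lie head to head, with starts 38 bases apart in the 2 windows that hold the motif. A single site falls in both of these windows, and its stretch with the flanking bases lies at chr3:122564322-122564350. The motif itself begins 40 bases before the start of PARP9 and 6 before that of DTX3L. The other stretches lie at chr3:122680800-122680828 (PARP14, plus strand), chr7:140062942-140062970 (PARP12, plus strand, opposite to the gene), chr7:93118097-93118125 (SAMD9, minus strand), chr4:168318787-168318815 (DDX60, minus strand), chr4:168480524-168480552 (DDX60L, minus strand) and chr1:112674699-112674727 (MOV10, plus strand). Their motifs begin 29, 9, 136, 53, 50 and 29 bases before the start, in the same order. DDX60 and DDX60L each hold another site, beginning 88 and 80 bases before the start. A match of letters is a description of the window and says nothing of what binds there.

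Some facts of the whole data set bear on these values. The median value of an array ran from 4.96 to 5.09, and 612 negative control rows had a median mean of 4.93, with 7.24 at the 95th percentile. Of 11 neuronal markers measured, 9 lay below the median row (5.67), MAP2 and NEFM being the exceptions, so most of the defining neuronal transcripts were near the level of control rows. Of 7 fibroblast markers, 6 lay above it, and their mean level ran from 14.11 to 14.44 on the control arrays, from 14.29 to 14.43 after miR-140-3p and from 14.24 to 14.34 after miR-126-5p. Of 6 microglia and leukocyte markers, 3 lay above the median row, with a mean level of 5.75 to 6.18, 5.82 to 5.93 and 5.69 to 5.84 in the same order, and PTPRC, AIF1 and ITGAM were among the dim rows. Of 37 genes measured from 6 lists of cell type markers, 0 passed the limma test used below in any comparison, and 4 after miR-140-3p, 5 after miR-126-5p and 4 between the mimics had an unadjusted p under 0.05. Over all rows, 8.52%, 10.4% and 9.06% did so in the same order, in either direction.

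With either mimic, 9 of the 10 genes were lower than with the scrambled control, by 2.85-fold to 8.15-fold after miR-140-3p and by 3.28-fold to 9.15-fold after miR-126-5p. The gene that did not pass the test was PARP10. The test was limma's moderated test on all 9 arrays, and a gene was called at a Benjamini-Hochberg adjusted p under 0.05 over all 36176 rows. Over all rows, 0.229% were called lower after miR-140-3p and 0.354% after miR-126-5p. The median log2 difference of the 10 genes was -2.14 after miR-140-3p and -2.35 after miR-126-5p, beside -0.02 and -0.04 over all rows. The genes were chosen with earlier results of these arrays known, so this count is a description. With the variance of each row left unmoderated, 0 of the 10 genes, and 0 of all rows, were called with either mimic (adjusted p of the 9 genes 0.123 to 0.282). RNA from bulk cultures does not separate fewer cells expressing a gene from less RNA per cell. Both mimics were set against the same 3 control arrays, and no array was of untransfected or reagent-only cells. A fall here means a value below that of the scrambled control. Whether the mimics lowered these genes or the scrambled oligonucleotide raised them cannot be told apart.

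**Figure D1:**
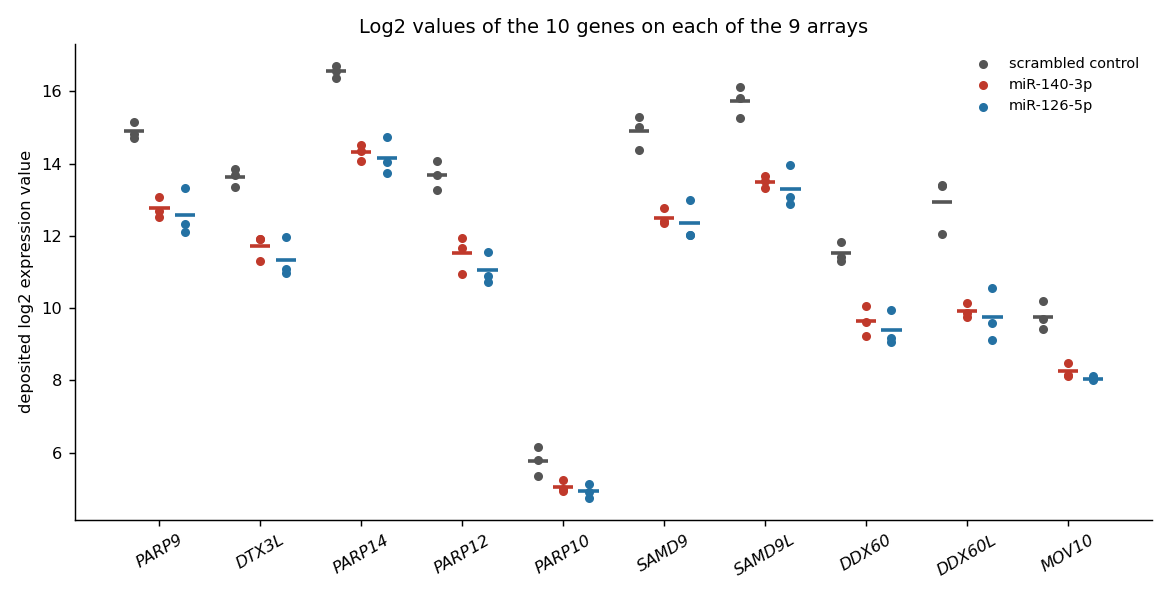
Deposited log2 expression value (vertical axis) of each of the 10 genes (horizontal axis) on the 9 arrays; each point is 1 array, coloured by group, and each bar is the mean of 3 arrays. For all 10 genes the 3 control arrays sit above the 6 mimic arrays, and values are not comparable between genes.

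In every one of the 10 genes the lowest control array was above the highest mimic array. Over all rows, all 3 miR-140-3p arrays were below all 3 control arrays in 7.48%, and all 3 miR-126-5p arrays in 11.0%. These shares take each mimic alone, and a share for both mimics together was not counted.

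PARP9, which carries macrodomains, and DTX3L, its ubiquitin ligase partner, were both lower by more than 3-fold with each mimic. PARP9 had log2 values of 14.72, 14.82 and 15.15 on the control arrays, 13.07, 12.69 and 12.52 after miR-140-3p, and 12.33, 12.10 and 13.33 after miR-126-5p. The third miR-126-5p array was the highest of the mimic arrays and still 1.39 below the lowest control. The log2 difference of PARP9 was -2.13 ± 0.28 (SE, n = 3 per group) after miR-140-3p, a 4.39-fold fall (limma adjusted p = 0.00555). With miR-126-5p it was -2.31 ± 0.28, a 4.95-fold fall (limma adjusted p = 0.00199).

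DTX3L had log2 values of 13.35, 13.69 and 13.85 on the control arrays, 11.92, 11.31 and 11.92 after miR-140-3p, and 11.09, 10.96 and 11.98 after miR-126-5p. The control arrays stood above both mimic groups, whose ranges overlapped each other. DTX3L fell 3.76-fold after miR-140-3p (log2 difference -1.91 ± 0.27 SE, limma adjusted p = 0.00882) and 4.87-fold after miR-126-5p (-2.28 ± 0.27, limma adjusted p = 0.00168). The miR-140-3p call for DTX3L was lost without the second control array (adjusted p = 0.072), the third control array (0.0712) or the second miR-140-3p array (0.0589). It was also lost when every row of the table was tested (0.0541). The difference PARP9 minus DTX3L within an array, which carries an unknown constant of the probes, was 1.27 ± 0.12 (SD, n = 3) in controls, 1.04 ± 0.41 after miR-140-3p and 1.24 ± 0.11 after miR-126-5p. These 3 ranges overlap, and whether the relation of the head-to-head genes on an array changed was not tested.

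The other members of the PARP family in the set, PARP14, PARP12 and PARP10, transfer single ADP-ribose units. PARP14, a large protein with several macrodomains, had log2 values of 16.38, 16.57 and 16.71 on the control arrays, 14.50, 14.06 and 14.36 after miR-140-3p, and 13.73, 14.03 and 14.73 after miR-126-5p. It had the smallest adjusted p of the 10 genes with each mimic. The fall was 4.73-fold after miR-140-3p (-2.24 ± 0.24 SE, limma adjusted p = 0.0011) and 5.23-fold after miR-126-5p (-2.39 ± 0.24, limma adjusted p = 0.000467). PARP14 and PARP9 lie on chromosome 3, and PARP14 minus PARP9 within an array was 1.65 ± 0.10 (SD, n = 3) in controls, 1.55 ± 0.26 after miR-140-3p and 1.57 ± 0.30 after miR-126-5p.

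PARP12, which has CCCH zinc fingers that bind RNA, had log2 values of 13.28, 13.67 and 14.06 on the control arrays, 11.94, 10.94 and 11.67 after miR-140-3p, and 10.89, 10.73 and 11.56 after miR-126-5p. It fell 4.45-fold after miR-140-3p (-2.15 ± 0.29 SE, limma adjusted p = 0.00669) and 6.12-fold after miR-126-5p (-2.61 ± 0.29, limma adjusted p = 0.00115). The miR-140-3p call for PARP12 was lost without the second (adjusted p = 0.0525) or the third control array (0.0505).

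PARP10 had log2 values of 5.36, 5.80 and 6.15 on the control arrays, 5.00, 4.95 and 5.24 after miR-140-3p, and 5.14, 4.91 and 4.75 after miR-126-5p. Its highest mimic array was only 0.12 below its lowest control array, and all 9 values were under the 95th percentile of the negative control rows. The log2 difference was -0.71 ± 0.21 after miR-140-3p (limma adjusted p = 0.366) and -0.84 ± 0.21 after miR-126-5p (limma adjusted p = 0.167). The looser thresholds of the study's methods were an unadjusted p under 0.05 with a log2 difference beyond 0.32 in either direction. Applied to limma's p, they counted PARP10, and so all 10 genes, as lower with each mimic. The study's own analysis ran in Partek, so its calls can differ from this count. Over all rows, those thresholds counted 5.16% as lower after miR-140-3p and 6.83% after miR-126-5p. Without the first control array, the lowest of its group, PARP10 passed the adjusted p after miR-126-5p (0.0352).

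SAMD9 and its neighbour SAMD9L, paralogs on chromosome 7 that are known to restrict poxviruses, fell by similar amounts. SAMD9 had log2 values of 14.37, 15.02 and 15.28 on the control arrays, 12.76, 12.35 and 12.41 after miR-140-3p, and 12.02, 12.03 and 13.00 after miR-126-5p. The fall was 5.22-fold after miR-140-3p (-2.38 ± 0.29 SE, limma adjusted p = 0.00278) and 5.82-fold after miR-126-5p (-2.54 ± 0.29, limma adjusted p = 0.00116). The first control array was the lowest of its group and the third miR-126-5p array the highest of its group. The controls lay above all mimic arrays, and the miR-140-3p arrays lay within the range of the miR-126-5p arrays.

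SAMD9L had log2 values of 15.26, 15.82 and 16.11 on the control arrays, 13.51, 13.32 and 13.66 after miR-140-3p, and 12.87, 13.08 and 13.96 after miR-126-5p. It fell 4.71-fold after miR-140-3p (-2.24 ± 0.28 SE, limma adjusted p = 0.00388) and 5.38-fold after miR-126-5p (-2.43 ± 0.28, limma adjusted p = 0.00141). SAMD9L minus SAMD9 within an array was 0.84 ± 0.04 (SD, n = 3) in controls, 0.99 ± 0.25 after miR-140-3p and 0.95 ± 0.10 after miR-126-5p, with the range of the controls inside that of miR-140-3p.

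DDX60, a helicase of the Ski2-like family, had log2 values of 11.41, 11.31 and 11.83 on the control arrays, 10.07, 9.22 and 9.62 after miR-140-3p, and 9.05, 9.17 and 9.95 after miR-126-5p. It fell 3.70-fold after miR-140-3p (-1.89 ± 0.27 SE, limma adjusted p = 0.00932) and 4.37-fold after miR-126-5p (-2.13 ± 0.27, limma adjusted p = 0.00252). The miR-140-3p call for DDX60 was lost without the third control array (adjusted p = 0.0728), the second miR-140-3p array (0.0603) or the third (0.0582), and when every row was tested (0.0573).

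DDX60L, the paralog of DDX60 on chromosome 4, showed the largest fall of the 10 genes with each mimic. Its brighter row had log2 values of 12.06, 13.38 and 13.40 on the control arrays, 9.86, 10.14 and 9.76 after miR-140-3p, and 9.13, 9.58 and 10.56 after miR-126-5p. The first control array was 1.32 below the second, the widest gap between neighbouring controls among these genes. The fall was 8.15-fold after miR-140-3p (-3.03 ± 0.38 SE, limma adjusted p = 0.00388) and 9.15-fold after miR-126-5p (-3.19 ± 0.38, limma adjusted p = 0.00171). DDX60L minus DDX60 within an array ran from 0.65 to 2.07 in controls, from -0.20 to 0.93 after miR-140-3p and from 0.07 to 0.61 after miR-126-5p, and 3 arrays against 3 cannot give an exact permutation p under 0.10.

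The other DDX60L row had log2 values of 3.40, 4.14 and 4.10 on the control arrays, 4.72, 4.50 and 3.94 after miR-140-3p, and 4.07, 4.50 and 3.89 after miR-126-5p. This row was below the median of the negative control rows on every array, and its groups overlapped. Its log2 difference was 0.50 ± 0.26 after miR-140-3p (limma adjusted p = 0.631) and 0.27 ± 0.26 after miR-126-5p (0.768). When both rows were averaged, DDX60L differed by -1.26 after miR-140-3p (adjusted p = 0.14) and by -1.46 after miR-126-5p (adjusted p = 0.0476), so the miR-140-3p call rests on the brighter row. Whether the probes tell DDX60 and DDX60L apart was not tested.

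MOV10, a UPF1-like RNA helicase known to restrict retroviruses and retrotransposons, had log2 values of 9.41, 9.69 and 10.20 on the control arrays, 8.49, 8.16 and 8.11 after miR-140-3p, and 8.03, 8.0 and 8.13 after miR-126-5p. Among the 9 genes called, it fell least, by 2.85-fold after miR-140-3p (-1.51 ± 0.21 SE, limma adjusted p = 0.00649) and by 3.28-fold after miR-126-5p (-1.71 ± 0.21, limma adjusted p = 0.0017). Its miR-126-5p arrays lay closest together of all groups of arrays among the 10 genes (SD 0.07).

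**Figure D2:**
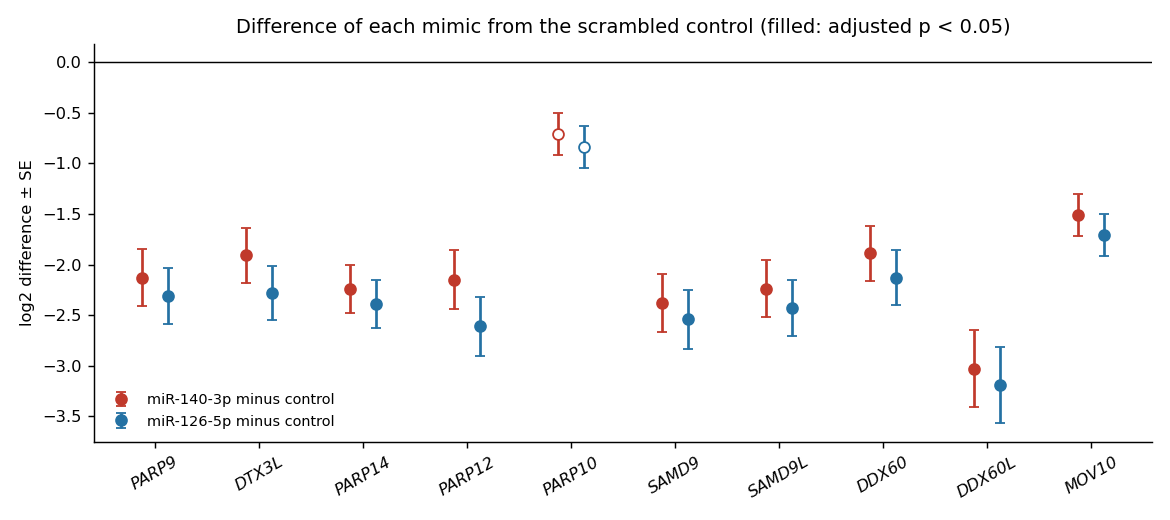
Log2 difference from the scrambled control (vertical axis) for each gene (horizontal axis), with points for miR-140-3p and miR-126-5p and bars of 1 standard error from the limma fit. Filled points passed the adjusted p; PARP10 did not, at -0.71 and -0.84, and DDX60L lies lowest at -3.03 and -3.19.

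Arrays of the control group, and the third miR-126-5p array, differed from the others of their group in the same direction in most genes. The third control array was the highest of its group in 10 of 10 genes and the first the lowest in 9 of 10. The third miR-126-5p array was the highest of its group in 9 of 10 genes. The miR-140-3p arrays were more mixed, with the first the highest in 6 genes and the second the lowest in 7. Averaged over the 10 genes, the difference from the control mean was -0.38, 0.04 and 0.34 for the 3 control arrays. It was -1.82, -2.22 and -2.01 for the miR-140-3p arrays and -2.51, -2.48 and -1.74 for the miR-126-5p arrays. The spread between arrays of 1 group was therefore partly shared across genes, most clearly among the controls. The 10 genes are thus not 10 separate observations of a mimic's effect. How often these arrays were the highest or lowest over all rows was not counted. The median SD of the 10 genes was 0.39 in the control group and 0.53 after miR-126-5p, beside 0.23 and 0.18 over all rows, and 0.22 after miR-140-3p, equal to that over all rows.

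**Figure D3:**
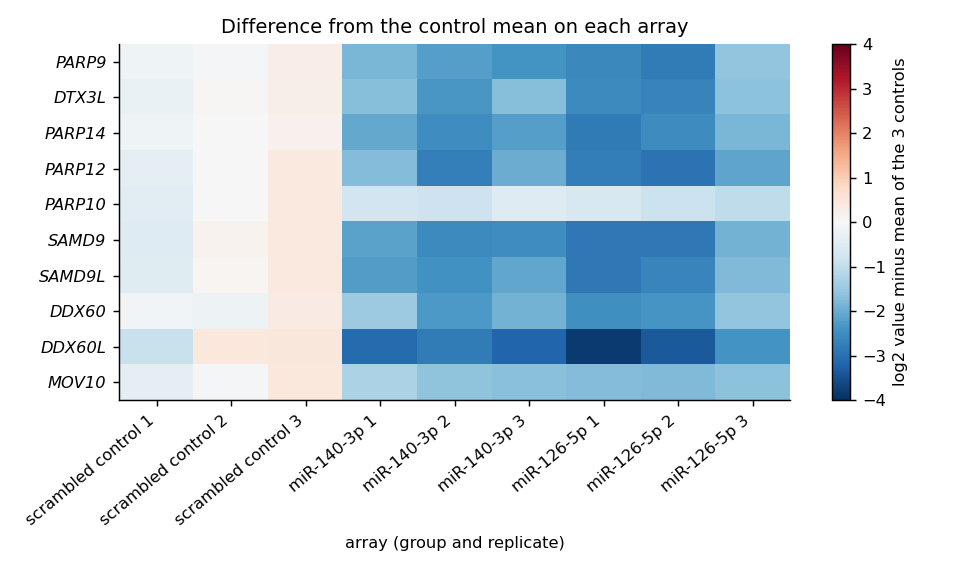
Log2 value minus the mean of the 3 control arrays (colour, blue for lower) for each gene (rows) on each array (columns, named by group and replicate). All mimic arrays are blue, PARP10 is the palest row, and the third miR-126-5p array, at -1.74 on average, is paler than the first and second of its group.

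The direct comparison of the mimics asks whether the falls differed in size. No gene of the 10 passed the adjusted p, and 0% of all rows did. By the looser thresholds, 0 of the 10 genes and 9.06% of all rows counted as different. The log2 difference, miR-140-3p minus miR-126-5p, ran from 0.13 in PARP10 to 0.46 in PARP12, and every 95% interval held 0. For PARP12 the interval was -0.18 to 1.10 (limma adjusted p = 0.665), for DTX3L it was -0.21 to 0.96 around 0.37 (0.707), and for PARP9 it was -0.44 to 0.79 around 0.17 (0.896). These intervals leave room for up to a 2.14-fold difference in PARP12, so a like response to both mimics was not shown. All 10 differences were above 0, but without the first or the second miR-126-5p array the sign turned for PARP14, SAMD9, SAMD9L and DDX60L or for PARP9 and SAMD9, respectively.

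**Figure D4:**
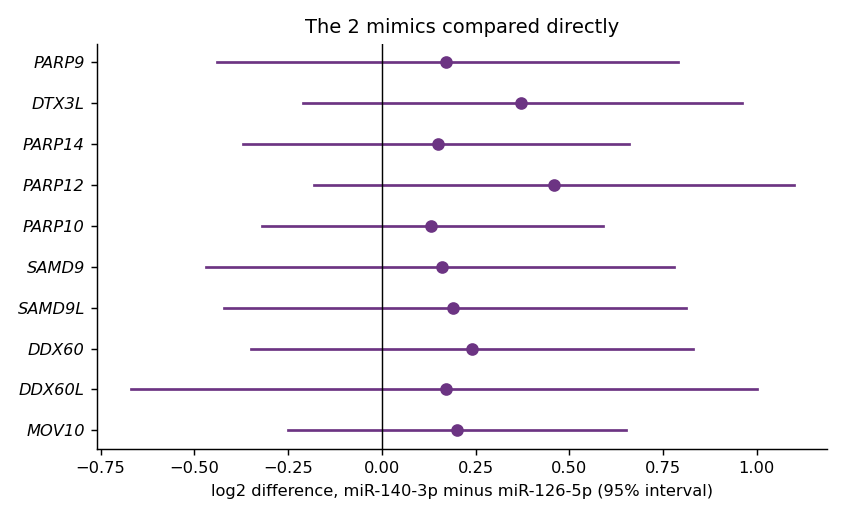
Log2 difference between the mimics, miR-140-3p minus miR-126-5p (horizontal axis), for each gene (vertical axis), with the 95% interval of the limma fit. All 10 intervals cross 0, the widest being DDX60L from -0.67 to 1.00.

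The wider families of these genes give the setting. Among 13 other PARP family genes, which include the DNA repair enzyme PARP1 and the tankyrases, 0 passed the limma adjusted p in any comparison. After either mimic, 5 of the 13 had an unadjusted p under 0.05, all of them lower, beside 8.52% of all rows after miR-140-3p and 10.4% after miR-126-5p in either direction. They were PARP3, PARP4, PARP8, PARP16 and ZC3HAV1, named here after their values were seen. The median log2 difference was -0.24 after miR-140-3p and -0.22 after miR-126-5p. ZC3HAV1, the zinc finger antiviral protein, had the largest difference after miR-140-3p (-0.61 ± 0.21, limma adjusted p = 0.458), and PARP4 after miR-126-5p (-0.81 ± 0.17, limma adjusted p = 0.0799, and 0.0326 with an intensity trend and robust estimation or 0.0314 among rows above the median level). Of 4 other deltex ligases and 4 ADP-ribose hydrolases measured, 0 were called by limma. An unadjusted p under 0.05 was found for 0 ligases and 1 hydrolase after each mimic. The hydrolase was a different gene each time, MACROD1 after miR-140-3p and ADPRS after miR-126-5p, both lower. The largest difference among the deltex ligases was 0.73 ± 0.44 in DTX3 after miR-140-3p (adjusted p = 0.684), and among the hydrolases -0.68 ± 0.20 in ADPRS after miR-126-5p (0.238).

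Among helicases, the 3 RIG-I-like genes were all called lower with both mimics. IFIH1, which codes for the RNA sensor MDA5, fell 8.96-fold after miR-140-3p (limma adjusted p = 0.000888) and 12.0-fold after miR-126-5p (0.00024). RIGI fell 7.57-fold (0.00129) and 10.0-fold (0.000384), and DHX58, the regulator LGP2, 5.32-fold (0.00129) and 5.78-fold (0.000681), in the same order. Of 5 other Ski2-like helicases, relatives of DDX60 that include the exosome cofactors SKIC2 and MTREX, 0 were called by limma. An unadjusted p under 0.05 was found for 0 after miR-140-3p and 1 after miR-126-5p, MTREX, which was higher by 0.42 on the log2 scale. The largest difference was -0.58 ± 0.36 in HFM1 after miR-140-3p (adjusted p = 0.689), in a row below the median row.

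Of 7 other UPF1-like helicases measured, relatives of MOV10, 2 were called lower with each mimic. ZNFX1, a sensor of double-stranded RNA, fell 2.45-fold after miR-140-3p (limma adjusted p = 0.0146) and 2.72-fold after miR-126-5p (0.00466). HELZ2 fell 3.52-fold (0.0139) and 4.06-fold (0.00439), with all 9 values under the 95th percentile of the negative control rows. The miR-140-3p calls of ZNFX1 and HELZ2 were both lost without the second control array (adjusted p = 0.0906 and 0.109), the third control array (0.101 and 0.1), the second miR-140-3p array (0.102 and 0.0962) or the third (0.0689 and 0.0689), and that of HELZ2 also without the first (0.0537). They were lost as well when every row was tested (0.0867 and 0.0795).

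Of the receptor pathway that leads to ISGF3, 5 genes were measured by a row of 1 symbol. IRF9, the DNA-binding subunit of ISGF3, had a range of 14.33 to 14.92 on the control arrays, 12.71 to 13.64 after miR-140-3p and 11.60 to 12.98 after miR-126-5p. It fell 5.76-fold after miR-126-5p (-2.53 ± 0.33, limma adjusted p = 0.00334), while after miR-140-3p the log2 difference of -1.57 ± 0.33 did not pass (0.123; 0.0429 with an intensity trend and robust estimation, 0.0273 without the third miR-126-5p array). The direct difference between the mimics for IRF9 was 0.96 (95% interval 0.23 to 1.68), which did not pass after adjustment (0.475). The receptor chains IFNAR1 and IFNAR2 and the kinases JAK1 and TYK2 were not called, with log2 differences between -0.16 and 0.18.

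**Figure D5:**
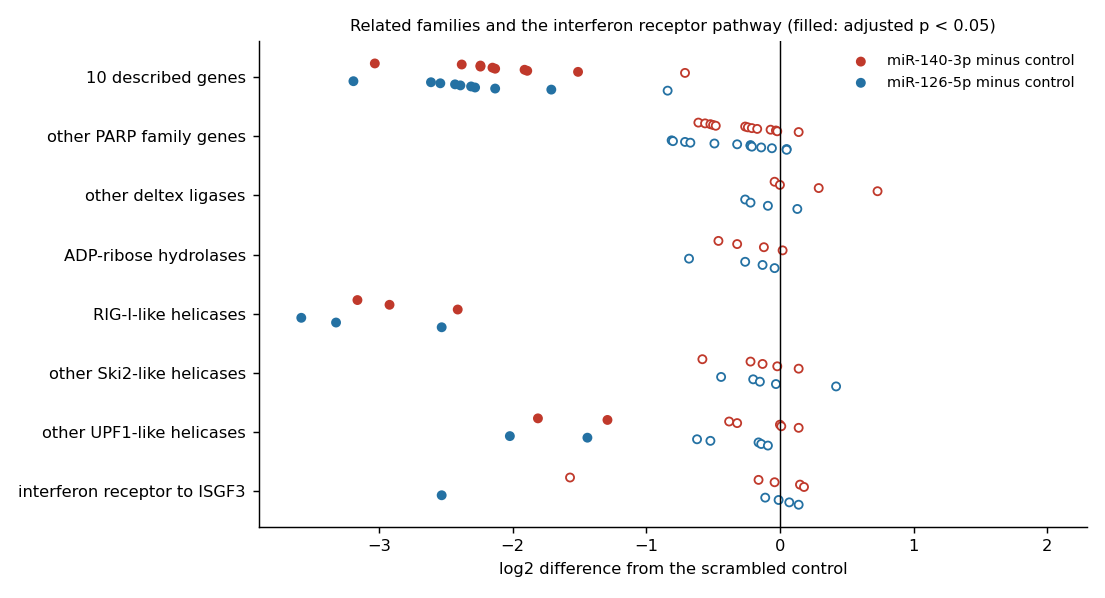
Log2 difference from the scrambled control (horizontal axis) for the 10 genes and for the genes of 7 related lists (vertical axis), with 1 point per gene and mimic, filled where the adjusted p passed. Filled points outside the 10 genes are the 3 RIG-I-like helicases, HELZ2 and ZNFX1 with both mimics, and IRF9 after miR-126-5p.

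The genes whose pattern over the 9 arrays was most like that of PARP9 were found by the root mean square difference after each row was centred on its own mean. Outside the 10 genes, the closest were PNPT1 (0.18 on the log2 scale), a mitochondrial RNA exonuclease, EIF2AK2 (0.19), the RNA-dependent kinase PKR, DHX58 (0.19), UBE2L6 (0.24), the conjugating enzyme for ISG15, and SP110 (0.26), a nuclear body protein. Among the 10, PARP14 and SAMD9 (both 0.20), DDX60 (0.22), DTX3L (0.23) and SAMD9L (0.24) were nearest, followed by PARP12 (0.29). MOV10 (0.41), DDX60L (0.56) and PARP10 (0.81) were farther, the first and last with smaller falls than PARP9 and DDX60L with a larger one.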

How the data were processed

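The authors deposited log2 values of 9 Affymetrix arrays (1 RNA sample each); per the labels RNA went through a 2-round amplification, and RMA, Partek and the Affymetrix Expression Console appear, without versions, in the submitters' processing notes. The sources differ on the chip (Clariom S in the methods, Clariom D in the design text). The number of arrays limits the precision. From the 138745 rows, 2995 control rows were left out, and 36176 rows with exactly 1 symbol in the platform annotation were tested; 1119 had several symbols and 98455 were not listed.

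Group means were compared with limma 3.58.1 (R 4.3.3; lmFit, eBayes, two-sided) in 1 fit without a block, with Benjamini-Hochberg adjustment over all rows tested. The row with the highest mean stood for a gene. The fit was tested on simulated data. Alternatives were each array left out, a replicate block, 2 groups per fit, an intensity trend, every row tested, a repeated quantile normalization, bright rows, unmoderated variance and the looser thresholds. The genes and lists were chosen with earlier results of these data known. Named were all 10 genes, up to 4 called genes per other list or else the largest difference, and the 5 genes most like PARP9. Motifs and sequences came from RefSeq tables (GRCh38.p14).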

Additional observations from a re-analysis of the deposited data

How the results depend on the processing

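With 3 arrays per group, the calls leaned on moderation of the variance. With each row's own variance, 0 of the 10 genes were called with either mimic, beside 9 and 9 with moderation, the adjusted p of the 9 genes lying between 0.123 and 0.282. In all other alternatives the falls against the control kept their direction in all 10 genes, and the number called stayed within 1.5 times of 9; leaving out 1 array gave 6 to 9 genes after miR-140-3p and 9 to 10 after miR-126-5p. Genes that lost a call are named above. Over all rows, 86 were called after miR-140-3p and 137 after miR-126-5p, and 46 to 124 and 80 to 304 when 1 array was left out; after miR-126-5p, 214 were called with an intensity trend and 226 among rows above the median level, and 0 after either mimic without moderation. With the replicate number as a block, 9, 9 and 0 genes were called in the 3 comparisons. Correlations of deviations from the group means ran from -0.061 to 0.107 for the same number and from -0.147 to 0.111 for others. With 3 arrays per group, these correlations cannot tell whether the numbers mark paired samples. Between the mimics, leaving out 1 array moved the log2 difference of PARP9 from -0.07 to 0.55, PARP14 from -0.07 to 0.43, SAMD9 from -0.01 to 0.48, SAMD9L from -0.03 to 0.52 and DDX60L from -0.15 to 0.57. PARP10 was too dim to be tested among rows above the median level.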

Other observations

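The nearest named protein-coding genes to the 10 genes were taken by RefSeq position after the values of the 10 were known. They were CAPZA1, RHOC, KPNA1, PARP15, HSPBAP1, ANXA10, PALLD, CDK6, HEPACAM2, TBXAS1, KDM7A, PLEC and GRINA. Of these 13, 0 passed the limma adjusted p in any comparison. An unadjusted p under 0.05 was found for 0 after miR-140-3p and 4 after miR-126-5p. Over all rows, 8.52% and 10.4% had one, in either direction. Of the 4, 3 were lower, and HEPACAM2 was higher by 0.70 on the log2 scale. The median log2 difference of the 13 was -0.06 after miR-140-3p and -0.11 after miR-126-5p. PARP15, a PARP family gene beside PARP14 on chromosome 3, differed by 0.14 ± 0.21 (SE) after miR-140-3p and 0.05 ± 0.21 after miR-126-5p. GRINA had the largest difference against the control among them, -0.73 ± 0.19 after miR-126-5p (adjusted p = 0.203).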
